A study of Caenorhabditis elegans with 2 samples.

Results

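The tRNA genes of chromosome X were examined in a ChIP-seq experiment on a tagged nuclear hormone receptor of Caenorhabditis elegans. A gene was chosen by its pooled peaks: genes of Ensembl biotype tRNA on X were selected when a summit of the pooled peak list lay between 1000 bp upstream and 500 bp downstream of the 5′ end. That rule returned 224 of the 276 tRNA genes on X, and these 276 genes are 45.1% of the 612 tRNA genes on the nuclear chromosomes. X holds 12.8% of all nuclear genes. The animals were whole L3 larvae, given as pooled males and females, of strain OP353. It carries the allele unc-119(tm4063) III and the transgene wgIs353. The immunoprecipitated target is described as eGFP-nhr-77, while the antibody is labelled nhr-77, so it is not settled here whether the antibody binds the tag or the receptor. The 2 libraries are biological replicates of 1 group, and the labels list no other genotype, treatment or stage. Each value is therefore a mixture over all cell types, and over whatever sexes were present, of a transgenic strain. The promoter that drives the transgene is not given in the sources used here.

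Transfer RNAs carry amino acids to the ribosome, and their genes are transcribed by RNA polymerase III. Unlike most protein-coding promoters, the control elements lie inside the transcribed region: the A box and the B box are bound by the factor TFIIIC, which recruits TFIIIB to the bases just upstream of the gene, and transcription ends at a run of T. NHR-77 belongs to the nuclear hormone receptors, a family of ligand-regulated transcription factors that is greatly expanded in nematodes.

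Sequences are shown for tRNA genes with a reproducible peak and for the short gaps between tRNA genes that face away from each other. All coordinates are on ce11 and all bases are from the RefSeq copy of that assembly. The genes below are shown because each lies under or beside a peak of the reproducible list described further on. That name stands for a list of the authors and not for a high rank in both replicates. Capitals mark the letters of the A box and then of the B box.

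R04A9.t1, tRNA-Gln, chrX:410391-410462, plus strand: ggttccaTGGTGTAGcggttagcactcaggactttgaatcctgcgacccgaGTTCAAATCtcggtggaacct
H35N09.t2, tRNA-Gln, chrX:8608834-8608905, minus strand: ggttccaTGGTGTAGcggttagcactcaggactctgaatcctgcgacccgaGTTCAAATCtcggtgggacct
H08J11.t2, tRNA-Gln, chrX:9091310-9091381, plus strand: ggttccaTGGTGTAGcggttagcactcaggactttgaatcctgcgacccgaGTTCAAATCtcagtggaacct
T07H6.t2, tRNA-Ala, chrX:6292278-6292349, minus strand: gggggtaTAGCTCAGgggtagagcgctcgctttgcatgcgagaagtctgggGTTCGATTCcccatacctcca
C02B4.t1, tRNA-Ile, chrX:12661164-12661247, plus strand: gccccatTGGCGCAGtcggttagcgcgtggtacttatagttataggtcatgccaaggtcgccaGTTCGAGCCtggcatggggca
C04A11.t1, tRNA-Leu, chrX:13665555-13665673, plus strand: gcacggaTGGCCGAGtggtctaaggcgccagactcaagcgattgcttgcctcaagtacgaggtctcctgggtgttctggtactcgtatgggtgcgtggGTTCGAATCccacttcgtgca
F32A6.t1, tRNA-Phe, chrX:5319385-5319457, minus strand: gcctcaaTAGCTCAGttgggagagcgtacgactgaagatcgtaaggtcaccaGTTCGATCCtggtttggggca
F55G7.t2, tRNA-Thr, chrX:11935080-11935151, minus strand: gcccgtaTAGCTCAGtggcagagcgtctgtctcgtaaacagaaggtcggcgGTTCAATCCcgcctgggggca
Y59E1B.t2, tRNA-Pro, chrX:1880817-1880888, minus strand: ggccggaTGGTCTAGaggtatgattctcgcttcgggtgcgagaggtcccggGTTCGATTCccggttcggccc

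R04A9.t1 and the 2 glutamine genes after it are near-copies. Counted from the 5′ base of the gene, H35N09.t2 differs from R04A9.t1 by T34C and A68G, and H08J11.t2 differs from it by G63A. The exact sequence of R04A9.t1 occurs 16 times in the genome, whereas those of C02B4.t1, C04A11.t1 and F32A6.t1 occur once. C02B4.t1 and C04A11.t1 are split by an intron, which makes them 84 and 119 bases long, against a median of 72 bases over the 276 genes. The box letters searched on the gene's own strand were TNGNNNAG in the first part of the gene and GNTCNANNC in its second part. The B box letters were found in 273 of the 276 genes, the A box letters in 233, both in 232, and a run of TTTT within 30 bases past the end in 273. In 203 of these 233 genes the A box letters began at base 8, as in the genes printed above, and in the rest they began at another base. The match rates hardly differed with peak status, since the A box letters were present in 37 of 43 genes with a reproducible peak, in 153 of 181 with another summit only and in 43 of 52 without a summit. Around all 5247 pooled summits on X, windows of 73 bases held the A box letters on either strand in 34.8% of cases, the B box letters in 7.07% and both on 1 strand in 1.28%.

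The gaps between divergent neighbours are shown because the summit lies between the 2 genes, outside either transcribed region. Each runs from the base after one 5′ end to the base before the other, and capitals mark 21 bases centred on the summit.

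M02F4.t2 to M02F4.t1, chrX:3036048-3036163, plus strand: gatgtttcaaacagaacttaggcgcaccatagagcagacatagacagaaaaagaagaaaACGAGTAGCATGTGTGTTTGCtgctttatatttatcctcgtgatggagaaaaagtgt
F46G11.t2 to F46G11.t1, chrX:5801283-5801471, plus strand: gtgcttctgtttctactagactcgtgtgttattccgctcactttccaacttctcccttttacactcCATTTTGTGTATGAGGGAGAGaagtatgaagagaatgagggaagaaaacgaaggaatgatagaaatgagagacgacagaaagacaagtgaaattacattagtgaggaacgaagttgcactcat
C48C5.t3 to C48C5.t1, chrX:8969560-8969737, plus strand: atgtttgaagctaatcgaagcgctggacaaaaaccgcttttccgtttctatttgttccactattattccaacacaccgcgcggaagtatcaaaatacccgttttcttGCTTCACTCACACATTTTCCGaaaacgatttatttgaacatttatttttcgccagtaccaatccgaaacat
C53C7.t2 to C53C7.t1, chrX:13046448-13046577, plus strand: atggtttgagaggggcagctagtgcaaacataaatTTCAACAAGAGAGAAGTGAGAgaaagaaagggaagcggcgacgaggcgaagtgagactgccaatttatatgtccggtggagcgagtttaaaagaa
T10B10.t2 to T10B10.t1, chrX:15200889-15201006, plus strand: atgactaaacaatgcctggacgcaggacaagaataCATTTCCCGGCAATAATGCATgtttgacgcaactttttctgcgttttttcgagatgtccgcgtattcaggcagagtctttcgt

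The M02F4 gap separates a tRNA-Glu gene from a tRNA-Gly gene, the C53C7 gap separates a pair of tRNA-Ser genes, the T10B10 gap a pair of tRNA-Gly genes, and the F46G11 and C48C5 gaps a pair of tRNA-Pro genes each. Their GC content ranged from 38.8% at C48C5 and M02F4 to 45.4% at C53C7. The F46G11 and C53C7 gaps contain the letters GAGAG, a motif chosen after the sequences had been seen. Within 50 bases of the summit, on either strand, it was present in 14 of 30 reproducible peaks of tRNA genes (46.7%, exact 95% interval 28.3 to 65.7%). It was present in 34 of 85 other reproducible peaks on X (40.0%), in 31 of 143 other leading peaks of tRNA genes (21.7%) and in 16.8% of all 5247 pooled peaks on X. The intervals of the 2 groups of reproducible peaks overlap (29.5 to 51.2% for the other peaks).

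A summit in the window was common at tRNA genes on X. The 224 genes are 81.2% of the 276 (exact Clopper-Pearson 95% interval 76.0 to 85.6%). The same window held a summit for 45.5% of all genes on X and for 39.7% of all nuclear genes, which is the background against which the share is read. On the autosomes 233 of 336 tRNA genes had one (69.3%, 64.1 to 74.2%). Of the 29 tRNA pseudogenes on X, copies no longer annotated as functional, 8 had a summit (27.6%, 12.7 to 47.2%), and of 2731 protein-coding genes on X 46.7% had one. Because a summit in the window chose the genes, these shares are descriptions and carry no test. The intervals cover counting error only, and genes that share a peak are not independent.

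Most members had a summit close to the gene start. The nearest summit was within 100 bp of the 5′ end for 145 of the 224 genes (64.7%), against 25.3% of all genes on X with a summit. Autosomal tRNA genes were alike, with 145 of 233 (62.2%, interval 55.7 to 68.5%), while the share was 20.6% for protein-coding genes on X and 3 of 8 for tRNA pseudogenes on X. The median signed distance was −1.50 bp, with quartiles at −57.8 and 81.5 bp, and the median absolute distance was 70.0 bp, against 261 bp at protein-coding genes on X. The nearest summit was upstream of the gene in 113 cases, inside it in 54 and past its end in 57. It was within 50 bp in 79 cases and within 200 bp in 186.

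**Figure D1:**
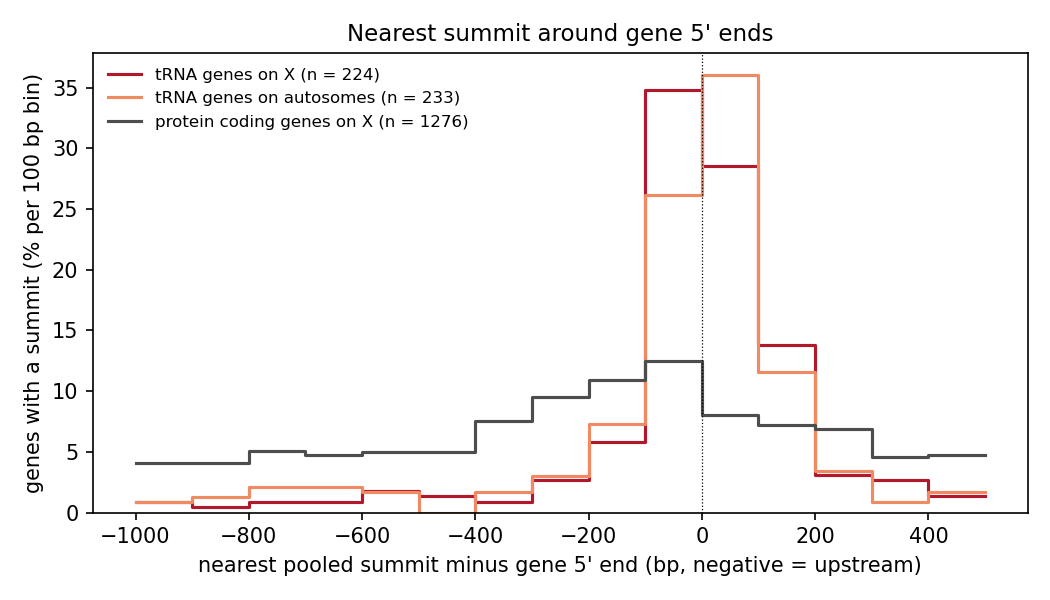
Distribution of the signed distance (bp) from the gene 5′ end to the nearest pooled summit, as the percentage of genes with a summit in each 100 bp bin, for 224 tRNA genes on X, 233 on autosomes and 1276 protein-coding genes on X. Both tRNA groups peak in the bins on either side of the 5′ end, and the protein-coding genes are spread over the window.

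Members just inside and just outside the window show what its ends decided. At the upstream end F08F1.t1 had its nearest summit at −966 bp and R04D3.t3 at −926 bp. At the downstream end R11.t2 had its nearest summit at exactly 500 bp and R04E5.t2 at 454 bp. Outside it, C18A11.t1 missed with a summit at −1069 bp and F28H6.t3 with one at −1325 bp, and F52E10.t2 and K11E4.t4 missed with summits at 552 and 579 bp. The summit that C18A11.t1 missed is the highest-ranked one that any member holds. The highest peak of the whole pooled list lies at −1474 bp from W02H3.t1, outside its window, so it is not counted here, although W02H3.t1 is a member through another summit 25 bp upstream.

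The nearest protein-coding 5′ end was usually far away. For 217 of the 224 members the nearest summit was closer to the tRNA 5′ end than to any protein-coding 5′ end, and the median distance from summit to protein-coding 5′ end was 1881.5 bp. A summit near the tRNA 5′ end is what chose the members, so this closeness is partly built in. The same values are not given here for other gene sets. Of the 276 genes, 96 lie within a protein-coding gene, and 13 of the 43 genes with a reproducible peak do. Among these are F41D9.t3 within sulp-3, F38G1.t2 within egl-17, C02D4.t1 within ser-2, F32A6.t1 within sto-2 and the 2 genes F15G9.t1 and F15G9.t2 within him-4. Among the 173 leading peaks, the nearest 5′ end of any biotype belonged to a tRNA gene for 122. For the 30 reproducible peaks it belonged to a tRNA gene in 24 cases, to an ncRNA gene in 5 and to a protein-coding gene in 1. A protein-coding window held 36 of the 173 leading peaks (20.8%).

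For ranks, the summit with the highest signal in each window was taken, and the authors' signal value, an enrichment of the immunoprecipitate over control, was used for ordering only. The leading peaks of the 224 genes had a median rank of 2358.5 among 30000 pooled entries, with quartiles at 836.75 and 8719.75. The median leading rank was 4690 for autosomal tRNA genes, 11881.5 for tRNA pseudogenes on X, 12072.5 for protein-coding genes on X and 11030 for all genes on X. The median leading signal was 16.5, over a range of 5.72 to 258, while the median of all pooled peaks on X was 8.32. Ranks up to 100 were held by 7 genes, up to 1000 by 63 and up to 5000 by 145, and the last rank was 28580. tRNA genes thus occupied the upper part of the list without being confined to its top.

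The 590 highest pooled entries form the authors' list at a threshold on the irreproducible discovery rate (IDR), which compares the order of peaks between replicates. Peaks of that list are called reproducible or IDR peaks here. The name does not mean a high rank in each replicate: 12 of the 30 IDR peaks of tRNA genes were within the first 590 entries of both replicate lists. A summit of that list lay in the window of 43 of the 224 genes (19.2%, 14.3 to 24.97%), against 5.4% of all genes on X with a summit and 4.63% of all such nuclear genes. The share was 15 of 233 for autosomal tRNA genes (6.44%, 3.65 to 10.4%), 45 of 1276 for protein-coding genes on X (3.53%) and 0 of 8 for tRNA pseudogenes on X, where the interval reaches 36.9%. Without the tRNA genes, the share on X was 105 of 2515 genes (4.17%), so the higher share was seen at tRNA genes and not over X at large. The intervals for tRNA genes on X and on autosomes did not overlap. They take genes as independent, although the 43 genes on X rest on 30 distinct peaks and the 15 autosomal genes on 12. Since the IDR list is cut from the same pooled signal that chose the members, this is a description and not independent evidence.

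The share of reproducible peaks was compared over bands of distance. Where the leading summit was within 50 bp of the 5′ end, 20 of 64 genes had an IDR peak (31.3%, 20.2 to 44.1%). The share was 8 of 56 at 51 to 100 bp (14.3%, 6.38 to 26.2%), 10 of 44 at 101 to 200 bp (22.7%, 11.5 to 37.8%), 2 of 36 at 201 to 500 bp (5.56%, 0.68 to 18.7%) and 3 of 24 at 501 to 1000 bp (12.5%, 2.66 to 32.4%). The shares were not ordered by distance, and of these 4 intervals that at 201 to 500 bp alone did not overlap that of the nearest band. Genes that share a peak can fall into different bands. The median leading rank went from 1127.5 in the nearest band to 5498.5 in the farthest. Among the 43 genes, the IDR summit was upstream of 28, inside 9 and past the end of 6. It was within 200 bp of the 5′ end for 38 of them.

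**Figure D2:**
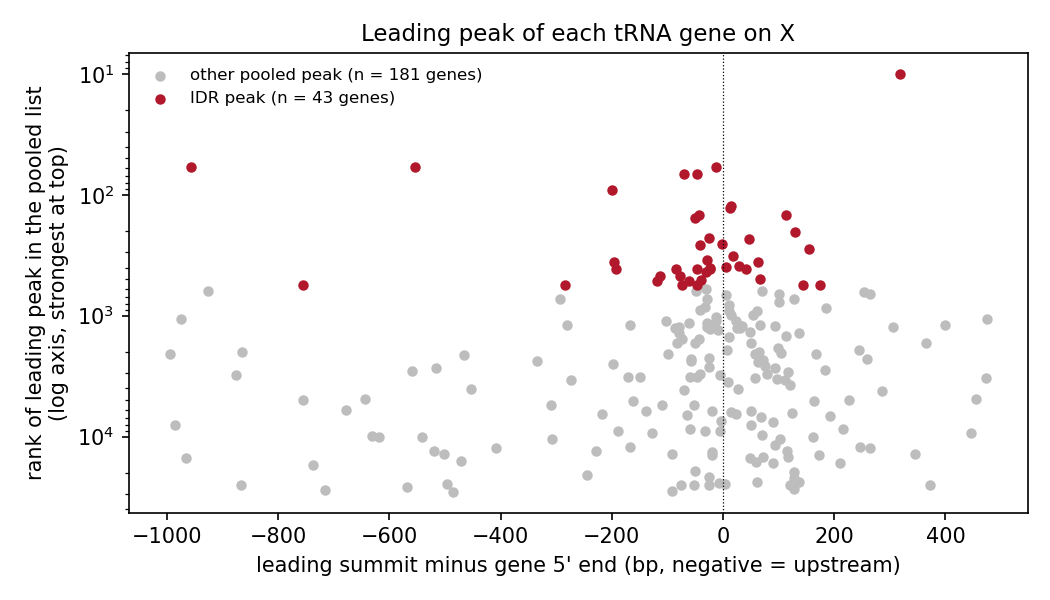
Rank of the leading peak in the pooled list (log axis, strongest at the top) against the signed distance (bp) of its summit from the tRNA 5′ end, 1 point per gene, for 43 genes whose leading peak is in the IDR list and 181 others. Points gather around the 5′ end at all ranks, and C18A11.t2 at rank 10 stands apart to the right.

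The highest-ranked peak of any member was not at the gene. C18A11.t2, a tRNA-Arg gene at chrX:8036685-8036757 on the minus strand, held a summit at rank 10 with a signal of 258, ranked 5 in the list of replicate 1 and 21 in that of replicate 2. The summit lay 319 bp downstream of the start and thus beyond the gene, and the nearest 5′ end was that of the ncRNA C18A11.13, from which the summit lay at −236 bp. Its 101 bases centred on the summit hold no tRNA gene base, and are shown with those of C02B4.t1 and F55G7.t2, where capitals mark bases of the tRNA gene.

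C18A11.t2, chrX:8036388-8036488, plus strand: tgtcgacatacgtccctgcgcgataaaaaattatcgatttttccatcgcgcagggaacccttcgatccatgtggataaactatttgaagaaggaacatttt
C02B4.t1, chrX:12661112-12661212, plus strand: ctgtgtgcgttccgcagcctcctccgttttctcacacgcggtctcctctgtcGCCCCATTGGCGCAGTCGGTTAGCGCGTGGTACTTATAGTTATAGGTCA
F55G7.t2, chrX:11935095-11935195, plus strand: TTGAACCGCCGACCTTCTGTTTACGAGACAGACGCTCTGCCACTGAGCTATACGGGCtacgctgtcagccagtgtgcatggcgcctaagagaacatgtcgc

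The next peak had a signal of 72.4 at rank 59, ranked 49 and 128 in the replicate lists, and it stood 12 bp upstream of R11.t1, the nearest to it of 4 tandem tRNA-Tyr genes. R11.t2 and R11.t3 hold the same peak at −553 and −956 bp, so they are members with an IDR peak by position in the window rather than by a summit at their own start. R11.t4, the last of the 4, lies too far for that peak and was led by a peak at rank 2115. The peak between M02F4.t2 and M02F4.t1 had a signal of 70.0 at rank 67, with ranks 62 and 156 in the replicates, 70 and 47 bp upstream of the respective 5′ ends. R04A9.t1 followed at rank 91 with its summit at −199 bp and ranks 39 and 246, and the gene itself lies within ZK1193.2 on the opposite strand. These 4 peaks were within the first 590 entries of both replicate lists.

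The 5 genes whose IDR summit lay nearest had it within 14 bp of the 5′ end. C02B4.t1, a tRNA-Ile gene, had its summit 2 bp upstream at rank 254, with ranks 536 and 291 in replicates 1 and 2. F55G7.t2, a tRNA-Thr gene, had it 6 bp downstream at rank 397, with ranks 1832 and 1126. R11.t1 has been given above. F41D9.t3, a tRNA-Asn gene, had it 13 bp downstream at rank 129, with ranks 137 and 370, and C33G3.t2, a tRNA-Lys gene, 14 bp downstream at rank 125, with ranks 118 and 257. C33G3.t2 and F41D9.t3 were thus in the first 590 entries of both replicates, whereas F55G7.t2 was in those of neither.

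The other peaks among the 20 highest fell into similar positions. The peak of F15G9.t1 and F15G9.t2 at rank 147 lay between these tandem tRNA-Ala genes, past the end of the first and 44 bp upstream of the second. C28G1.t1 (rank 157), W02H3.t1 (rank 227), F38G1.t2 (rank 259), ZK899.t1 (rank 349) and Y59E1B.t2 (rank 403) had summits 24 to 51 bp upstream of their 5′ ends, and C28G1.t1 lies within the protein-coding gene C28G1.2, whose own 5′ end was 46 bp from the summit. T07H6.t2 (rank 230), C04A11.t1 (rank 322) and F32A6.t1 (rank 386) had them inside the gene, at 47, 18 and 29 bp. H35N09.t2 had the summit inside the gene at 63 bp and shared the peak, at rank 360, with H35N09.t1. C42D8.t1 (rank 203) and C02D4.t1 (rank 283) had theirs past the end, at 129 and 154 bp. For the F15G9, H35N09 and C42D8.t1 peaks the nearest 5′ end was that of an ncRNA gene. The summit lay at −25, 25 and −41 bp from it, respectively. Just under the IDR list came C04C11.t1, named after its values were seen, with a summit 30 bp upstream at rank 598, a rank of 250 in replicate 1 and no entry within 100 bp in replicate 2.

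Peaks were shared among neighbours. The 224 genes were led by 173 distinct peaks, of which 130 led 1 member, 37 led 2, 4 led 3 and 2 led 4, and 94 members shared their leading peak. The 43 genes with an IDR peak correspond to 30 peaks, and 23 of the 43 share one. Counted as peaks, 30 of the 115 IDR peaks on X were the leading peak of a tRNA gene (26.1%). Of all 5247 pooled peaks on X, 173 were. A leading peak is the highest in its window, which favours IDR peaks in this count. Within 100 bp of a tRNA 5′ end lay 25 of the 115 IDR summits and 140 of the 5247 pooled summits. One summit lay in the window for 135 members, 2 for 75, 3 for 11 and 4 for 3.

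The neighbours formed 53 clusters of 2 or more tRNA genes whose 5′ ends lie within 1000 bp, with 131 genes in all, and 145 genes stood alone. An IDR peak was held by 19 of 145 lone genes (13.1%, 8.08 to 19.7%), 15 of 78 in pairs (19.2%, 11.2 to 29.7%) and 9 of 53 in larger clusters (16.98%, 8.07 to 29.8%), and the 3 intervals overlap. In larger clusters those 9 genes had 3 peaks. The 3 clusters with the most members did not hold the highest ranks. The largest cluster with all genes as members, F22F1.t2 to F22F1.t7, held 6 members of the isotypes Asp, Ile, Met and Ser and a best rank of 2385, and K01A12.t1 to K01A12.t5 held 5 Arg and Cys members and a best rank of 1197. Neither cluster held an IDR peak. The third, H08J11.t1 to H08J11.t5, held 5 tRNA-Gln genes over 1002 bp within ajm-1, and 4 of the 5 had 1 IDR peak at rank 557 in their windows. That summit lay in the gap between H08J11.t2 and H08J11.t3, 143 bp downstream of the first 5′ end and 175 bp downstream of the second. Clusters with 4 members differed widely: R11.t1 to R11.t4 had a best rank of 59, and F28H6.t2 to F28H6.t7 had one of 24903.

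Neighbouring pairs within 1000 bp numbered 78 and were compared by orientation. Of 25 divergent pairs, 22 had the same leading peak and 7 shared an IDR peak. Of 36 tandem pairs, 17 had the same leading peak and 4 shared an IDR peak, and of 17 convergent pairs these numbers were 8 and 1. Divergent 5′ ends were also closer, at a median of 162 bp against 465 bp for tandem and 321 bp for convergent pairs, so orientation and spacing cannot be told apart here. A pooled summit lay between the 5′ ends in 14 of the 25 divergent pairs (56%), in 20 of the 36 tandem pairs (55.6%) and in 5 of the 17 convergent pairs (29.4%). That summit was an IDR peak in 5 divergent, 1 tandem and 1 convergent pairs. In the 5 divergent ones, the pairs printed above, the summit was within 28.5 bp of the midpoint.

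The genes with an IDR peak were counted by isotype. Of the 20 isotypes named for 273 of the 276 genes, 15 had at least 1 gene with an IDR peak. The counts were 8 of 20 tRNA-Pro genes through 5 peaks, 7 of 15 tRNA-Gln genes through 3 peaks, 4 of 8 tRNA-Tyr genes through 2 peaks, 3 of 13 tRNA-Ile genes through 3 peaks, 3 of 13 tRNA-Ala genes through 2 peaks and 4 of 20 tRNA-Gly genes through 3 peaks. Counted as peaks, these isotypes lie closer together than counted as genes. tRNA-Arg, the isotype with the most genes on X, had 1 of 27, and that gene is C18A11.t2. No IDR peak was held by the 14 tRNA-Val, 9 tRNA-His, 8 tRNA-Met, 7 tRNA-Cys or 5 tRNA-Trp genes. tRNA-Arg also gave 10 of the 52 genes without a summit. On the autosomes 3 of 22 tRNA-Pro genes, 0 of 12 tRNA-Gln genes and 1 of 11 tRNA-Tyr genes had an IDR peak. With so few peaks per isotype, and clusters made of 1 isotype, no isotype was tested against another.

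**Figure D3:**
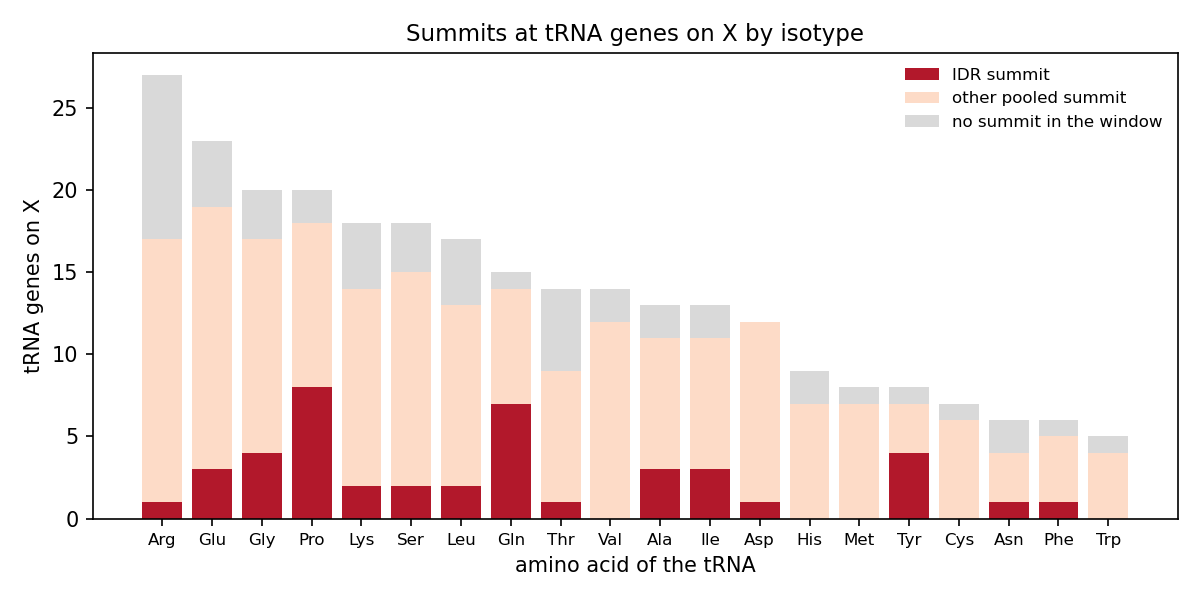
Number of tRNA genes on X by the amino acid of the tRNA, divided into genes with an IDR summit, with another pooled summit and with no summit in the window. Pro, Gln and Tyr hold the most IDR genes for their number, with some genes sharing a peak, and Val, His, Met, Cys and Trp hold none.

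Many tRNA genes occur as exact copies on X and on other chromosomes, which allows genes with the same transcribed bases to be compared. The genome has 43 such sequences, with 185 genes on X and 223 on autosomes. A summit in the window was held by 157 of the X copies (84.9%, 78.9 to 89.7%) and 170 of the autosomal copies (76.2%, 70.1 to 81.7%). The nearest summit was within 100 bp for 108 (58.4% of all X copies) and 115 (51.6%). An IDR peak was held by 32 X copies (17.3%, 12.1 to 23.5%) and 11 autosomal copies (4.93%, 2.49 to 8.65%), through 23 and 8 distinct peaks. The median leading rank was 2080 on X and 4029 on autosomes. For the 3 sequences with the most genes on X, an IDR peak was held by 5 of 13 X copies and 3 of 11 autosomal copies of a tRNA-Pro sequence, by 2 of 12 and 1 of 8 copies of a tRNA-Glu sequence, and by 4 of 11 and 0 of 18 copies of the tRNA-Gly sequence of F56C3.t1. For the sequence of R04A9.t1 printed above the counts were 5 of 9 X copies and 0 of 6 autosomal copies, and 5 of those 6 had a pooled summit. The 5 X copies are R04A9.t1, H35N09.t1, H08J11.t3, H08J11.t4 and H08J11.t5, which rest on 3 peaks, and H08J11.t5 holds its peak at −755 bp. Only genes annotated with exactly these bounds were counted, which leaves out 1 of the 16 genomic copies. The direction was not the same for every sequence. Autosomal copies had the higher IDR share for the tRNA-Lys sequence of F43C9.t1, with 1 of 5 X copies and 2 of 9 autosomal copies. The same held for those of K01A12.t5 (0 of 7 and 1 of 5), F22F1.t6 (0 of 3 and 1 of 6), F17A2.t1 (0 of 1 and 1 of 3) and C53C7.t3 (0 of 1 and 1 of 2).

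**Figure D4:**
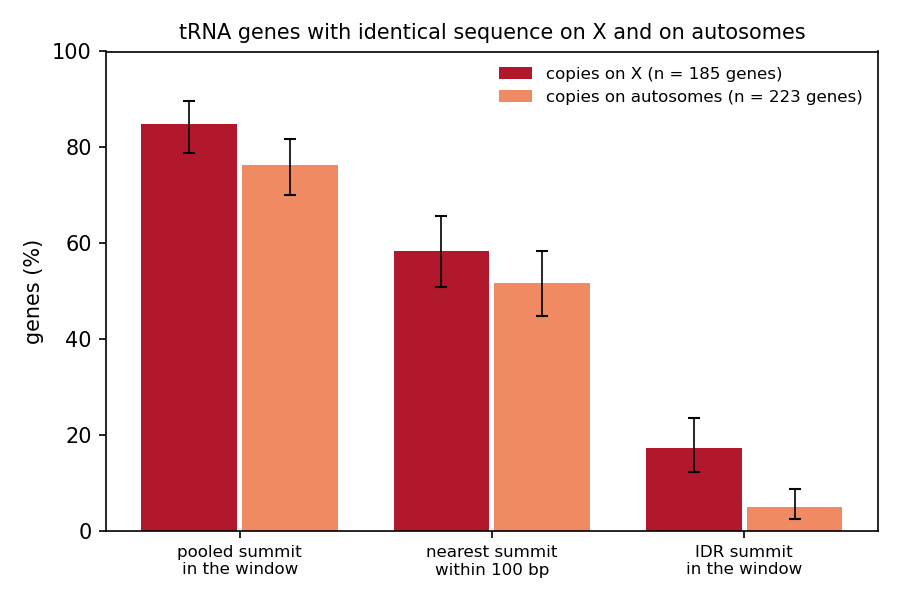
Percentage of tRNA genes with a pooled summit in the window, a nearest summit within 100 bp and an IDR summit, for 185 copies on X and 223 on autosomes of the 43 sequences found on both. Bars show the share of genes and error bars exact 95% binomial intervals, which do not overlap for the IDR summit but overlap for the others. The intervals take genes as independent, although the genes with an IDR summit rest on 23 distinct peaks on X and 8 on autosomes.

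Genes were also grouped by the number of copies of their sequence. Genes with a sequence found once in the genome were members in 37 of 55 cases and had an IDR peak in 6 (10.9%, 4.11 to 22.2%). Those with over 15 copies were members in 80 of 87 cases and had an IDR peak in 22 (25.3%, 16.6 to 35.7%). In between, 5 of 32 genes with 2 to 5 copies (15.6%, 5.28 to 32.8%) and 10 of 102 with 6 to 15 copies (9.80%, 4.80 to 17.3%) had one. The shares were not ordered by copy number, and the 4 intervals overlap. How reads that match several copies were placed is not given in the sources used here, and its part in these counts was not tested. The bases around the summit also differed: within 100 bp of the leading summit the median GC content was 41.3% for the members, 48.0% for members with an IDR peak, 42.8% for other IDR peaks on X and 35.8% for all pooled peaks on X, and its part was not tested.

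The replicate lists, with 30000 entries each, were used to see how each member ranked in each library. Over all tRNA genes on X, 75.7% had a summit in the window in the list of replicate 1 and 79.3% in that of replicate 2. For all genes on X these shares were 45.2% and 45.7%. Among the 224 members, a summit lay in the window in both lists for 175 genes and in neither for 4. The leading pooled summit had an entry within 100 bp for 154 members in each list, for 110 in both and for 26 in neither. These counts describe the members, which were chosen by the pooled list, and the same counts are not given here for other genes. The median offset was 25 bp in replicate 1 and 35 bp in replicate 2. A summit among the first 590 entries of the list lay in the window of 39 members in replicate 1 (17.4%, against 5.7% of all genes on X with a pooled summit) and of 40 in replicate 2 (17.9%, against 5.11%), and 20 members had one in both. For autosomal tRNA genes these counts were 20 and 15 of 233. The members were chosen by the list pooled from these libraries, so the shares were also taken over all genes, with or without a pooled summit. They were 14.1% and 14.5% for tRNA genes on X, 5.95% and 4.46% for autosomal tRNA genes and 2.61% and 2.34% for all genes on X. The share was thus higher at tRNA genes on X in each replicate list. For the 20 genes with such a summit in both lists, no share over all genes on X is given here. The pooled list is made from these 2 libraries, so its ranks are not a further observation.

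The 30 IDR peaks of tRNA genes were uneven between replicates. All 30 had an entry within 100 bp in replicate 1 and 28 in replicate 2, with median ranks of 306.5 and 354. Within the first 590 entries were 22 of 30 in replicate 1 (73.3%, 54.1 to 87.7%) and 17 of 30 in replicate 2 (56.7%, 37.4 to 74.5%), of which 12 were in both, 10 only in replicate 1, 5 only in replicate 2 and 3 in neither. The other 85 IDR peaks on X had 65 and 63 within the first 590, with median ranks of 167 and 203, and their intervals overlap those of the tRNA peaks. How many of those 85 were in both lists or in neither is not given here. The unevenness is therefore not shown to be particular to the tRNA peaks. The 2 peaks without a match in replicate 2 were those of C42D8.t1 (rank 1666 in replicate 1) and of C16B8.t2 and C16B8.t3 (rank 151). The windows of these genes did hold a summit among the first 590 entries of replicate 2. It lay more than 100 bp from the pooled summit, so the missing match depends on the matching distance. The widest gaps in rank were at F56C3.t1, with ranks 24643 and 329 in replicates 1 and 2, at T10B10.t1 and T10B10.t2, with 288 and 13809, and at the H08J11 genes, with 7385 and 293. Each of these 3 peaks was within the first 590 entries of 1 replicate list and far below them in the other.

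**Figure D5:**
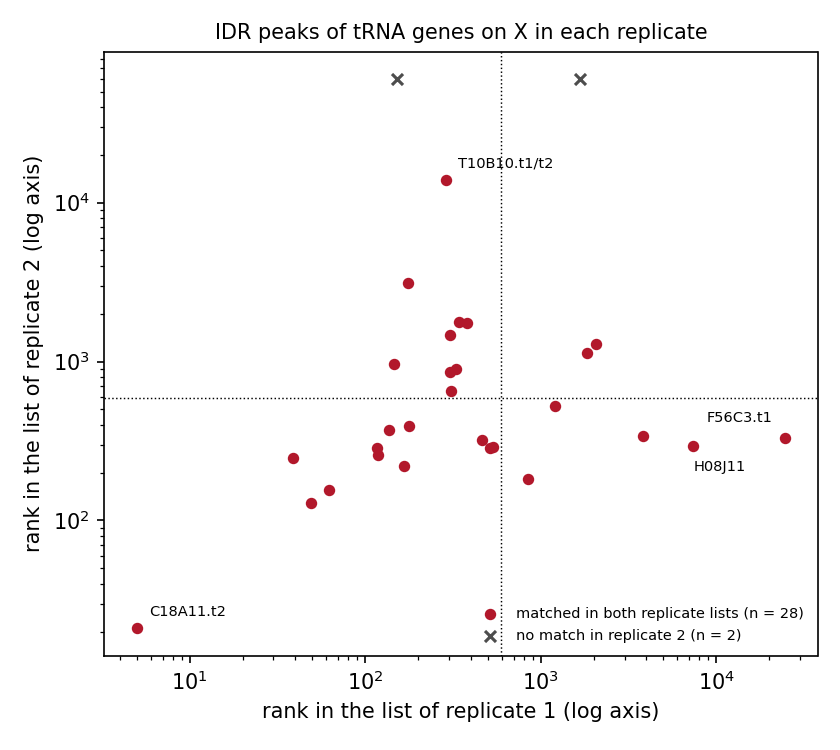
Rank of the 30 IDR peaks of tRNA genes on X in the lists of replicate 1 and replicate 2 (both log axes), with dotted lines at rank 590. The 12 peaks to the lower left of both lines are within the first 590 of both lists, and the 2 crosses at the top, placed above the axis range of the ranks, are peaks without an entry within 100 bp in replicate 2.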

How the data were processed

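Per the labels and the file headers, the authors deposited peak lists for each replicate, for the pooled replicates and after an IDR threshold. The signal value of each entry, as deposited by the authors, is the enrichment of ChIP over control. It was used to rank entries within a list. Aligner, caller, versions, IDR threshold and read depth: not given in the sources used here. Control libraries and ce10 lists were not used.

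Summits were placed on ce11 (1-based), which is WBcel235, with genes from Ensembl release 115 and isotypes and bases from RefSeq. A summit was assigned to each gene whose window, −1000 to +500 bp of any transcript 5′ end, held it. Entries within 100 bp were matched, and 5′ ends within 1000 bp were joined into clusters by single linkage. Shares carry exact 95% binomial intervals, for counting error only. Python 3.11.15, pandas 2.3.3, numpy 2.4.6, scipy 1.17.1 and matplotlib 3.10.9 were used, and the assignment was tested on simulated summits. No test was run: there is 1 group, the members were chosen on these peaks, and genes are not replicates.

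The members and lists were chosen with earlier results of these data known. The genes named are the members of the 20 highest member peaks, those nearest each window end, the 3 largest clusters by members, the 5 with the nearest IDR summit and the 3 peaks with the widest rank gap. The other genes named were chosen after their values were seen. Sequences that share 24 or more bases in a row with chromosome I are not printed. Alternatives covered the window, the assignment of summits to genes, the number of entries, the replicate lists, the matching distance and the linkage.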

Additional observations from a re-analysis of the deposited data

How the results depend on the processing

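Of 45 alternatives, 31 stayed within 1.5 times the count, the interval of the share or the spread of the median between replicates. The number of tRNA genes on X with a summit changed from 224 to 143 when each summit went only to its nearest gene and to 145 with the first 5000 entries. The replicate lists, each without the other replicate, gave 209 and 219. The genes with an IDR summit changed from 43 to 24 with the nearest gene. They numbered 18 with the stronger 295 entries of the IDR list. In each replicate list, genes with a summit among its first 590 entries were counted instead, which gave 39 and 40. The share with an IDR summit changed from 19.2% to 29.7% with the first 5000 entries and 8.04% with those 295 entries. The replicate counts were 18.7% and 18.3% of the 209 and 219 genes with a summit in each list, not of the 224. The share of nearest summits within 100 bp, alternatives for which were chosen after seeing the data, changed from 64.7% to 78.0% in a window reaching 200 bp to each side, 81.1% with the nearest gene and 73.3% with the nearest tRNA gene, and was 61.2% and 54.8% in the replicate lists. The median signed distance of −1.50 bp moved by more than the spread between replicates in each case: it was −19.0 bp for the highest summit in the window, −31.0 bp for IDR summits alone, and 8 and 7 bp in the replicate lists. Its sign is therefore not settled, while its size stayed small against the window. No paired analysis was possible because there is 1 group and no test. Read depth is unknown, so no limit of detection can be given for the 52 genes without a summit. Peak lists of other factors and of untagged animals were not analysed here, so whether these summits are particular to the tagged receptor was not tested.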
